A study of Mus musculus with 22 samples.

Results

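The nuclear genes of the mitochondrial respiratory chain and its ATP synthase were followed through 2 tables of Sd scores from mouse cortex. Members were taken by symbol: every gene whose name starts with Ndufa, Ndufb, Ndufc, Ndufs, Ndufv, Uqcr, Atp5 or Cox4 to Cox8, and the succinate dehydrogenase genes Sdha, Sdhb, Sdhc and Sdhd. The rule found 87 of 15705 genes in the 6-month table and 88 of 15192 in the 12-month table. The additional row at 12 months is Uqcr, an older symbol of Uqcr11 in RefSeq, which has a row of its own there as well. An Sd score is a linear ratio per gene and library, read here as a measure of splicing deficiency that is higher where more unspliced signal was found; its formula was not given in the sources used here.

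At 6 months the libraries came from littermates of a cross of N40K-Tg +/- with FAD +/- mice. They were N40K mice, transgenic for a truncated, N-terminal form of U1-70K, which is part of the U1 small nuclear ribonucleoprotein (snRNP); dTg mice, which carry the N40K and the 5xFAD transgenes; 5xFAD mice, a transgenic model that develops amyloid deposits; and WT mice with neither (n = 3 libraries each). At 12 months they were Tau P301S mice, transgenic for mutant human tau (n = 6), and WT mice (n = 4), from a Tau P301S +/- by WT cross. For the N40K and tau transgenes, the promoter is not given in the sources used here. Sd scores hold no expression level, so neither the cortex label nor the transgenes could be checked against marker genes, and in bulk tissue a change in cell makeup and a change within cells cannot be told apart.

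The respiratory chain moves electrons from NADH and succinate to oxygen through complexes I to IV and pumps protons across the inner mitochondrial membrane, and ATP synthase, or complex V, uses the returning protons to make ATP. Most subunits are encoded in the nucleus, so their transcripts pass through the spliceosome before the proteins enter the mitochondrion. The U1 snRNP starts that process by base pairing with the 5′ splice site, that is, with the last bases of an exon and the first bases of the intron behind it. Cortical neurons draw most of their ATP from this pathway. The members fell into 36 subunits of complex I (7 of them core subunits), 4 assembly factors of complex I, 4 subunits of complex II, 8 of complex III (9 rows at 12 months), 17 of complex IV including Ndufa4, and 15 of complex V. A further 3 match the rule by name alone or lie outside the complexes: Atp5s, Atp5sl and Cox4nb, which is Emc8 of the endoplasmic reticulum membrane protein complex. The subunits encoded by mitochondrial DNA, Cox8b, Cox8c and Ndufa4l2 were not analysed here.

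The exon junctions of Atp5c1 and Ndufab1 are printed because these genes had the smallest adjusted p among members with a higher and with a lower score in N40K carriers. Each line gives 12 coding bases on either side of a junction in the spliced transcript, 5′ to 3′, with the 3 bases before the junction, the exonic part of the 5′ splice site, in capitals. The sequences are from GENCODE M21 (GRCm38). Atp5c1 lies on chromosome 2 and Ndufab1 on chromosome 7, both on the minus strand, and junctions that reach into an untranslated region were left out.
Atp5c1 junction 1: gcagccgcaATGgatccaagttcg
Atp5c1 junction 2: ctctgaaagATAttaccaggagac
Atp5c1 junction 3: caggttcttTGGctctgtatgaga
Atp5c1 junction 4: catactttaTAGgactcattctga
Atp5c1 junction 5: taatcagttCAAgtctgttatctc
Atp5c1 junction 6: ttgcgactgCTGagaccatgagca
Atp5c1 junction 7: gcaagaacgCTTctgatatgattg
Ndufab1 junction 1: gcgctcgcgCAGgtgcctggaaca
Ndufab1 junction 2: gatccagaaAAGctctccgtaaat
Ndufab1 junction 3: aagacgaatTTGggtttgaaattc
The exon ended in AG, the letters of the usual exon end, at 2 of 9 junctions of Atp5c1 and at 3 of 4 of Ndufab1, counting the junctions not printed. The other members with a limma adjusted p under 0.05 in N40K carriers were Ndufv1 (higher) and Ndufa3 (lower). There the exon ended so at 4 of 9 junctions of Ndufv1 and at 1 of 3 of Ndufa3. Over the 87 members it did so at 185 of 376 junctions (49.2%). These counts describe the letters, and a score is not resolved to single introns.

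Most respiratory chain genes had low Sd scores in WT cortex. The median member stood at 0.00933 in 6-month WT mice, against 0.0297 over all genes, and at 0.00563 in 12-month WT mice, against 0.0153 over all genes. Low scores were not particular to the chain: the 6-month WT median was 0.00633 for citric acid cycle and 0.00867 for glycolysis genes. In the other lists of genes around the chain it ran from 0.027 (electron carriers) to 0.0518 (further complex I assembly factors). A mean WT score under 0.02 was found for 60 of 87 members (69%; 40.1% of all genes) at 6 months and for 70 of 88 (79.5%; 56.4% of all genes) at 12 months. At that level the 3 decimals of the deposited scores are coarse: 34 members at 6 months and 46 at 12 months spanned no more than 2 steps of 0.001 over all libraries of their table.

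Complex I had a median score of 0.0095 in 6-month WT mice. Its lowest subunits were Ndufa9 and Ndufs4, an accessory subunit of the NADH module, each at 0.002 in all 3 WT libraries. Its highest were Ndufb10, a membrane-arm subunit, at 0.122, 0.121 and 0.127, and Ndufs8, a core iron-sulphur subunit, at 0.110, 0.111 and 0.108. At 6 months these 2 genes thus scored more than 10 times the complex's median, with a narrow spread between libraries. In 12-month WT mice Ndufs8 averaged 0.1245 but Ndufb10 only 0.012, where the complex's median was 0.005. The assembly factors covered the whole range. Ndufaf2 scored 0.001, 0.002 and 0.002 in 6-month WT mice, while Ndufaf3 scored 0.825, 0.848 and 0.844, the highest value of any member.

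All 4 genes of complex II, which also serves in the citric acid cycle, scored low in 6-month WT mice, with the flavoprotein gene Sdha at 0.002 in each library, the iron-sulphur gene Sdhb at 0.006, 0.005 and 0.006, and the membrane anchors Sdhc at 0.006, 0.005 and 0.007 and Sdhd at 0.010, 0.009 and 0.011. Complex III had a median of 0.0107. Its range ran from Uqcrfs1, the Rieske iron-sulphur protein, at 0.00133 ± 0.000577 and the core protein Uqcrc2 at 0.00333 ± 0.000577 to the small subunits Uqcrq at 0.019 ± 0.00436 and Uqcr10 at 0.0227 ± 0.00153 (SD, n = 3 WT). The spread of Uqcrq overlapped with the level of Uqcr10. In complex V, with a median of 0.014, Atp5o (the oligomycin sensitivity conferring protein) scored 0.002 and Atp5f1 (subunit b of the peripheral stalk) 0.004 in every WT library. The catalytic beta subunit Atp5b was highest at 0.175, 0.173 and 0.173, and the introns of Atp5b hold the small RNA genes Snord59a and Mir677. The 3 genes for the same c-ring subunit differed, at 0.0417 ± 0.00321 for Atp5g1, 0.014 ± 0.00173 for Atp5g2 and 0.0623 ± 0.00231 for Atp5g3 (SD, n = 3 WT), with no overlap between their libraries.

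**Figure D1:**
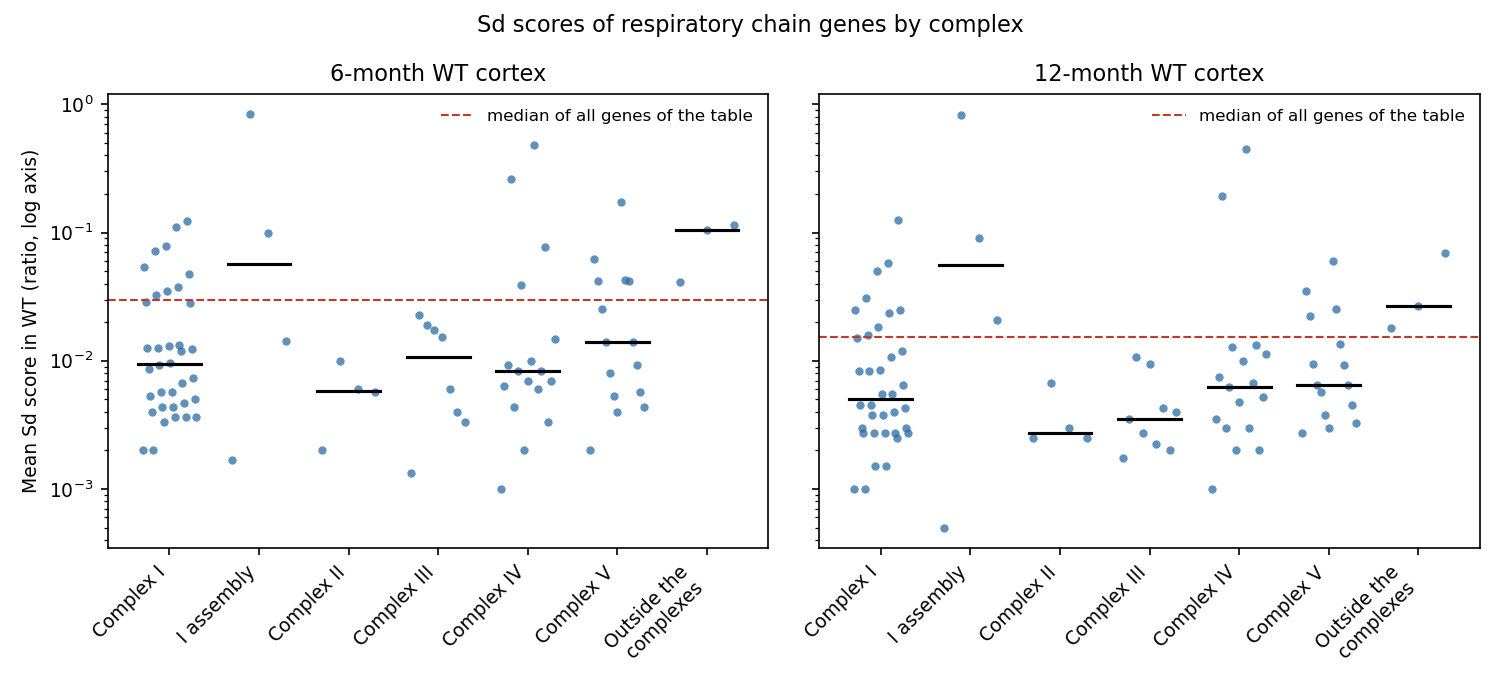
Mean Sd score of each respiratory chain gene in WT cortex by complex, at 6 months (left, n = 3) and 12 months (right, n = 4), on a log axis; black bars are the median of a complex and the dashed line is the median of all genes of the table (0.0297 and 0.0153). The median of every subunit complex lies under the dashed line, and the highest point is Ndufaf3.

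In complex IV, isoforms of the same subunit differed in score. Several of its subunits exist as a widely expressed form and a form best known from heart, muscle, lung or testis. Cox6a2, the heart and muscle isoform, scored between 0.375 and 0.581 over the 12 libraries of the 6-month table (median 0.477), and its partner Cox6a1 between 0.006 and 0.011 (median 0.008). Cox6b2, the testis isoform, ranged from 0.183 to 0.372 (median 0.266), and Cox6b1, the lowest member in 6-month WT mice, from 0.001 to 0.002 (median 0.001). Both restricted isoforms were higher than their partners in all 22 libraries of both tables.

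The same order held less widely for the other pairs. Cox4i2 was higher than Cox4i1 in 12 of 12 libraries at 6 months and 9 of 10 at 12 months, and Cox7a1 higher than Cox7a2 in 12 of 12 and 8 of 10. The order was turned in Cox7b2, a testis isoform, which was higher than Cox7b in 2 of 12 libraries at 6 months and in 0 of 10 at 12 months. Cox7a2l, a supercomplex assembly factor related to subunit 7a, stood at 0.007 in each 6-month WT library, next to 0.006 for Cox7a2. Cox8a scored 0.00433 ± 0.000577 (SD, n = 3 WT), and Ndufa4, once counted in complex I, 0.002 in each.

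**Figure D2:**
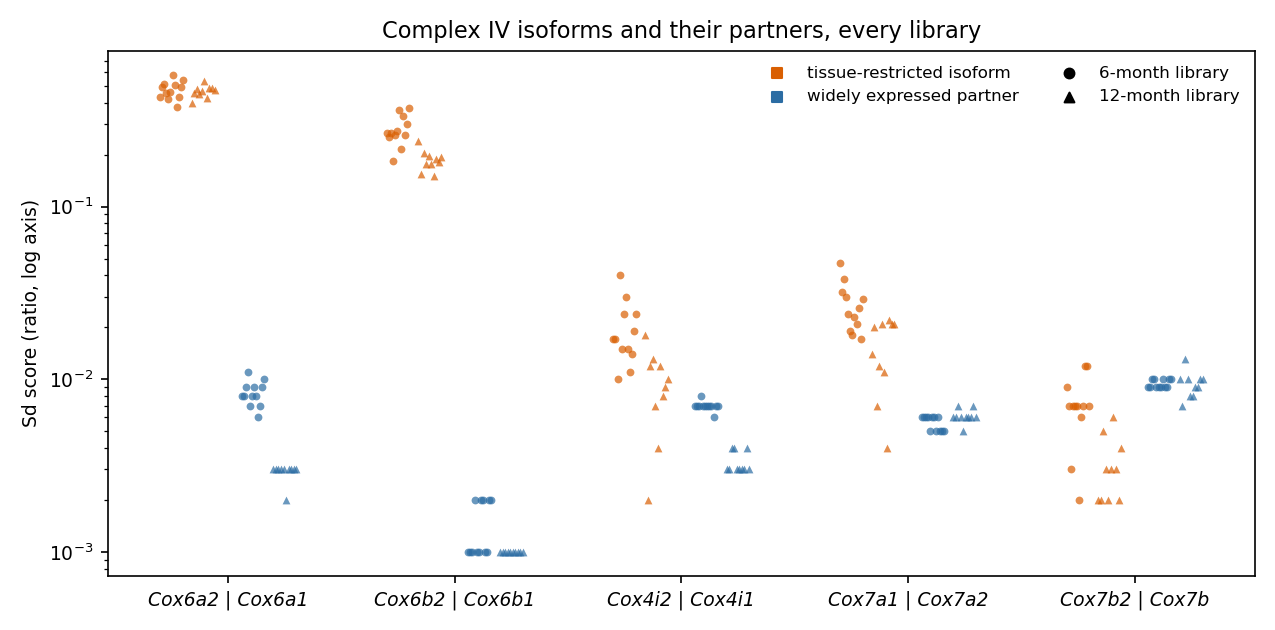
Sd score of 5 complex IV isoform pairs in every library on a log axis, with 12 libraries at 6 months (circles) and 10 at 12 months (triangles); the tissue-restricted isoform is on the left of each pair. Cox6a2 and Cox6b2 lie above their partners in all 22 libraries, and Cox7b2 lies under Cox7b in most.

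Members with less intron sequence tended to have higher scores. In GENCODE M21 a member had a median of 3 introns and 6237 intron bases in all, against 9 introns and 21036.5 bases over 14846 matched genes. Across the 87 members, the log2 score in 6-month WT mice and the log2 intron length correlated with Pearson's r = -0.53 (Spearman's rho = -0.43). Over all matched genes the same values were -0.65 and -0.63. These describe genes of the same libraries, which are not independent replicates. The 3 highest members had 411 intron bases (Ndufaf3), 273 (Cox6a2) and 562 (Cox6b2), while Ndufaf2 and Ndufs4, with 105357 and 98766, were among the lowest. The order was not strict: Cox7b2 had 104840 intron bases and a mean WT score of 0.00633, while Cox6b1, the lowest member at 0.001, had 8673. Some members with little intron sequence scored low, such as Ndufa2 (1654 bases) and Cox8a (1914 bases), each at 0.00433. Exons of other annotated genes lay within the introns of 20 members, and their median score was 0.007, against 0.01 in the 67 members without.

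The levels in the 2 tables are given side by side only, since the tables were made separately and differ in age, cross and number of genes. Across the 87 members in both, WT levels correlated with Spearman's rho = 0.77, and the median ratio of 12 to 6 months was 0.75 after 0.002 had been added to each score. For 11 members the 12-month level was more than 4 times lower, as in the membrane-arm subunits Ndufb2 (0.0045, against 0.079 at 6 months) and Ndufb7 (0.004, against 0.054), in Cox7c (0.00675, against 0.0773) and in Atp5b (0.0223, against 0.174). Ndufb10 was also among the 11 (0.012, against 0.123). Atp5f1 went the other way, with 0.0605 at 12 months, against 0.004 at 6 months. Age and the making of the tables cannot be told apart here.

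The comparison of N40K carriers (N40K and dTg) with non-carriers (5xFAD and WT) asks how these scores differed with the U1-70K fragment. Of the 87 members, 2 rose (Atp5c1 and Ndufv1) and 2 fell (Ndufab1 and Ndufa3), by limma on log2(score + 0.002), at an adjusted p under 0.05 (Benjamini-Hochberg, all genes of the table). Among all 15705 genes, 11.7% passed, 10.8% higher and 0.936% lower. Leaving out 1 library lowered that share by over 1.5 times in 6 cases. It was 5.18% when WT replicate 2 was dropped and 6.14% for WT replicate 1, 5.3% for replicate 3 of 5xFAD and 7.47% for its replicate 1, 6.03% for dTg replicate 2, and 6.74% for N40K replicate 1. With the replicate number as a block it was 5.66%. The members' median change was 0.02 on the log2 scale, against 0.09 over all genes, and 51 members lay above 0 and 32 below (58.6% above, against 72% of all genes). A median change below that of all genes was not particular to the chain. It was -0.01 for cytosolic ribosomal protein genes, 0.04 for mitochondrial ribosomal protein and glycolysis genes, and 0.05 for further complex I assembly factors. The other lists of genes around the chain stood at 0.10 to 0.15. Unadjusted p was under 0.05 for 14 members (16.1%), against 29.1% of all genes. The scores of 0 members separated the 6 carrier libraries from the 6 others, against 5.11% of all genes above and 0.395% below.

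Library medians over all genes tended to be higher in N40K carriers, with overlap. They were 0.036, 0.031 and 0.032 in N40K and 0.030, 0.035 and 0.033 in dTg mice, against 0.031, 0.030 and 0.029 in 5xFAD and 0.029, 0.029 and 0.030 in WT mice. After centring of every library on its median, 0 members were higher and 10 lower, among them Ndufab1, Ndufa3 and Uqcrb, against 4.54% of all genes higher and 3.36% lower, and the members' median change was -0.11 against -0.04 over all genes. The members' median stayed below that of all genes, by 0.05 to 0.08, in each of 20 settings. When the 2 libraries of highest median (N40K replicate 1 and dTg replicate 2) were left out, 0 members passed at adjusted p under 0.05 in limma, against 4.77% of all genes, and 9 at unadjusted p under 0.05, against 19.7%.

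**Figure D3:**
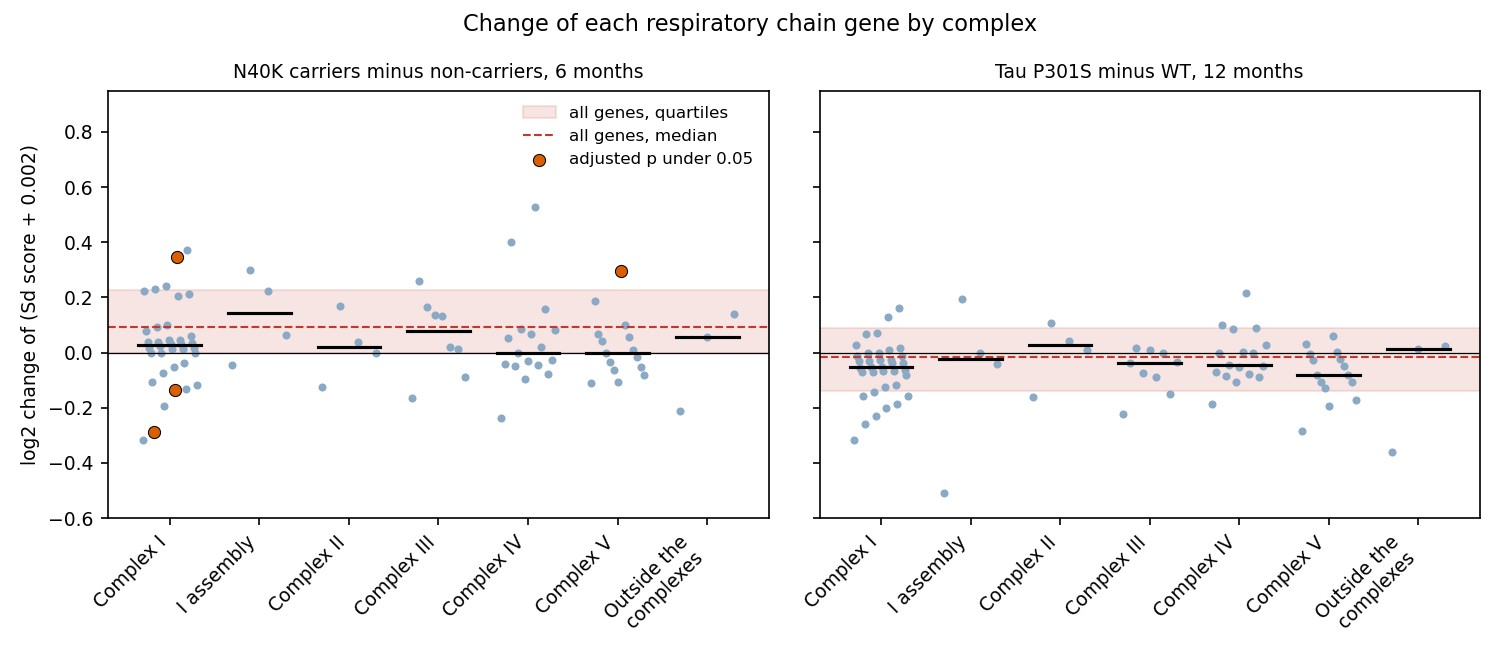
Log2 change of (Sd score + 0.002) of each respiratory chain gene by complex, for N40K carriers minus non-carriers at 6 months (left, 6 against 6 libraries) and Tau P301S minus WT at 12 months (right, 6 against 4). Black bars are medians of a complex, the shaded band runs between the quartiles of all genes and the dashed line their median (0.09 and -0.02); the 4 ringed orange points at left passed the threshold.

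Atp5c1 encodes the gamma subunit, the central stalk that turns within the catalytic head of ATP synthase. It scored 0.011, 0.010 and 0.010 in N40K and 0.009, 0.012 and 0.011 in dTg mice, against 0.008, 0.009 and 0.008 in 5xFAD and 0.008 in each of the 3 WT libraries. The N40K libraries lay above all non-carriers, and dTg replicate 1 equalled the highest of them. The difference was 0.29 ± 0.06 on the log2 scale (SE; 1.23-fold, limma adjusted p = 0.0183). Atp5c1 passed whichever single library was left out (limma adjusted p from 0.00747 to 0.0480), and missed the threshold after centring (0.0698) and without both libraries of highest median (0.0542).

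Ndufv1 is the core subunit of complex I that binds NADH and flavin mononucleotide, where electrons enter the chain. It scored 0.101, 0.075 and 0.084 in N40K and 0.083, 0.098 and 0.1 in dTg mice, against 0.065, 0.079 and 0.062 in 5xFAD and 0.071, 0.070 and 0.075 in WT mice. N40K replicate 2 fell among the non-carriers and the other 5 carriers lay above them. The difference was 0.35 ± 0.09 on the log2 scale (SE; 1.27-fold, limma adjusted p = 0.0369). It passed without N40K replicate 2 (0.0278), 5xFAD replicate 2 (0.0325) or dTg replicate 1 (0.0273). Leaving out any of the other 9 libraries made it miss the threshold, at adjusted p from 0.0572 without WT replicate 3 to 0.0868 without dTg replicate 2. It also missed it after centring (0.0760), with the replicate block (0.0838) and without both libraries of highest median (0.133).

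Ndufab1 is the mitochondrial acyl carrier protein, a complex I subunit that also works in fatty acid and lipoic acid synthesis. It scored 0.041, 0.037 and 0.036 in N40K and 0.037, 0.038 and 0.047 in dTg mice, against 0.049, 0.047 and 0.051 in 5xFAD and 0.046, 0.047 and 0.050 in WT mice. Only dTg replicate 3 reached into the non-carriers' range. The difference was -0.29 ± 0.06 on the log2 scale (SE; 0.819-fold, limma adjusted p = 0.0225). It missed the threshold without WT replicate 2 (0.0513), 5xFAD replicate 3 (0.0574) or dTg replicate 2 (0.0539), and with both top-median libraries left out (0.0565). Exons of Gm44986, on the opposite strand, lie over 22.4% of its intron bases, and whether the scores used strand was not given in the sources used here.

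Ndufa3, an accessory subunit of complex I, scored 0.012, 0.012 and 0.011 in N40K and 0.012, 0.011 and 0.011 in dTg mice, against 0.013, 0.012 and 0.013 in 5xFAD and 0.013 in each WT library. All 12 values thus fell on 3 neighbouring steps of the last decimal. The difference was -0.14 ± 0.03 on the log2 scale (SE; 0.91-fold, limma adjusted p = 0.0365). It passed without N40K replicate 2 (0.0419), 5xFAD replicate 2 (0.0377) or dTg replicate 1 (0.0243) and missed the threshold without any of the other 9, at adjusted p from 0.0514 without N40K replicate 1 to 0.0841 without 5xFAD replicate 3. It also missed it with trend and robust options in limma's eBayes step (0.0708), with the replicate block (0.0664) and without both libraries of highest median (0.0900).

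**Figure D4:**
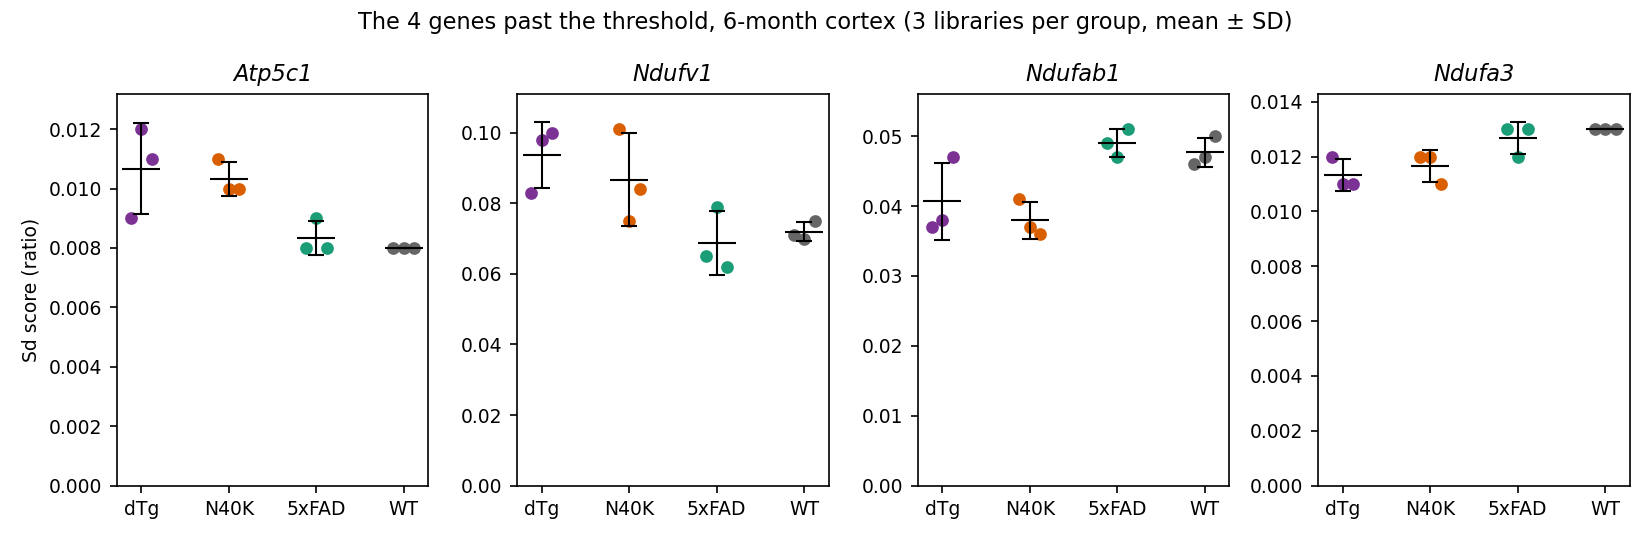
Sd score of Atp5c1, Ndufv1, Ndufab1 and Ndufa3 in each 6-month library (points; 3 per group, with mean and SD), with axes from 0. The dTg and N40K points sit mostly above the 5xFAD and WT points in Atp5c1 and Ndufv1, and mostly below them in Ndufab1 and Ndufa3.

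No other member passed in N40K carriers. In complex I, Ndufb5, a membrane-arm subunit, came closest, at 0.012, 0.007 and 0.009 in N40K and 0.008, 0.011 and 0.009 in dTg mice, against 0.006 to 0.007 in all 6 non-carriers (1.3-fold, limma adjusted p = 0.0565). The complex's 36 subunits had a median change of 0.03, with 23 above and 11 below 0. Of its assembly factors, Ndufaf2 averaged 0.0025 in carriers and 0.00167 in non-carriers (adjusted p = 0.127), Ndufaf4 0.111 and 0.0947 (0.239), Ndufaf1 0.0143 and 0.0137 (0.314) and Ndufaf3 0.815 and 0.841 (0.4, by limma). In complex II, Sdhb averaged 0.00683 ± 0.000753 in carriers and 0.00583 ± 0.000408 in non-carriers (SD, n = 6 each; limma adjusted p = 0.105), Sdhc 0.00533 and 0.006, Sdhd 0.0103 and 0.01, and Sdha 0.002 in both.

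In complex III, Uqcrb, a small subunit, scored 0.005, 0.004 and 0.005 in N40K and 0.006, 0.005 and 0.006 in dTg mice, against 0.006 in all 6 non-carriers (0.892-fold, limma adjusted p = 0.0626). Uqcrc2, Uqcrfs1 and Uqcr10 had limma adjusted p from 0.188 to 0.307 and carrier means of 0.004, 0.002 and 0.0243, against 0.0035, 0.00133 and 0.0213 in non-carriers. In complex IV, 0 of 17 genes reached even an unadjusted p under 0.05 in limma. Its smallest p belonged to the isoform Cox7b2 (1.44-fold, adjusted p = 0.201), Cox7a2 (0.935-fold, 0.206), Cox6c (1.12-fold, 0.352) and Cox7a1 (0.85-fold, 0.354). In complex V, the members after Atp5c1 were Atp5l (subunit g; 1.14-fold, limma adjusted p = 0.206), Atp5j (coupling factor 6; 1.04-fold, 0.343) and Atp5g2 (0.925-fold, 0.396). The median change was -0.0030 in complex IV and 0 in complex V, against 0.08 in complex III and 0.14 in the 4 assembly factors.

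Libraries of the same genotype went different ways. In N40K replicate 1, 40 of 87 members lay above all 3 WT libraries and 10 below, where 56% of all genes lay above and 9.74% below. In N40K replicate 2 there were 5 members above and 23 below (29.3% and 17.9% of all genes), and in replicate 3 there were 11 above and 16 below (32.6% and 13.4%). In dTg mice the counts were 5 above and 22 below in replicate 1 (27.1% and 20.8% of all genes), 26 and 14 in replicate 2 (53.2% and 11.7%), and 36 and 5 in replicate 3 (44.9% and 9.73%). Non-carriers of the N40K transgene also varied, since 5xFAD replicate 1 had 17 above and 7 below (26% and 14.9% of all genes) and replicate 3 had 6 above and 19 below (14.8% and 23.2%). The 3 libraries with the most members above WT, N40K replicate 1 and dTg replicates 2 and 3, were also those with the largest shares of all genes above. The mean log2 difference of all members from the WT mean was 0.15, -0.07 and -0.01 in the N40K libraries and -0.04, 0.07 and 0.11 in the dTg libraries, against 0.03, 0.01 and -0.06 in 5xFAD mice.

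**Figure D5:**
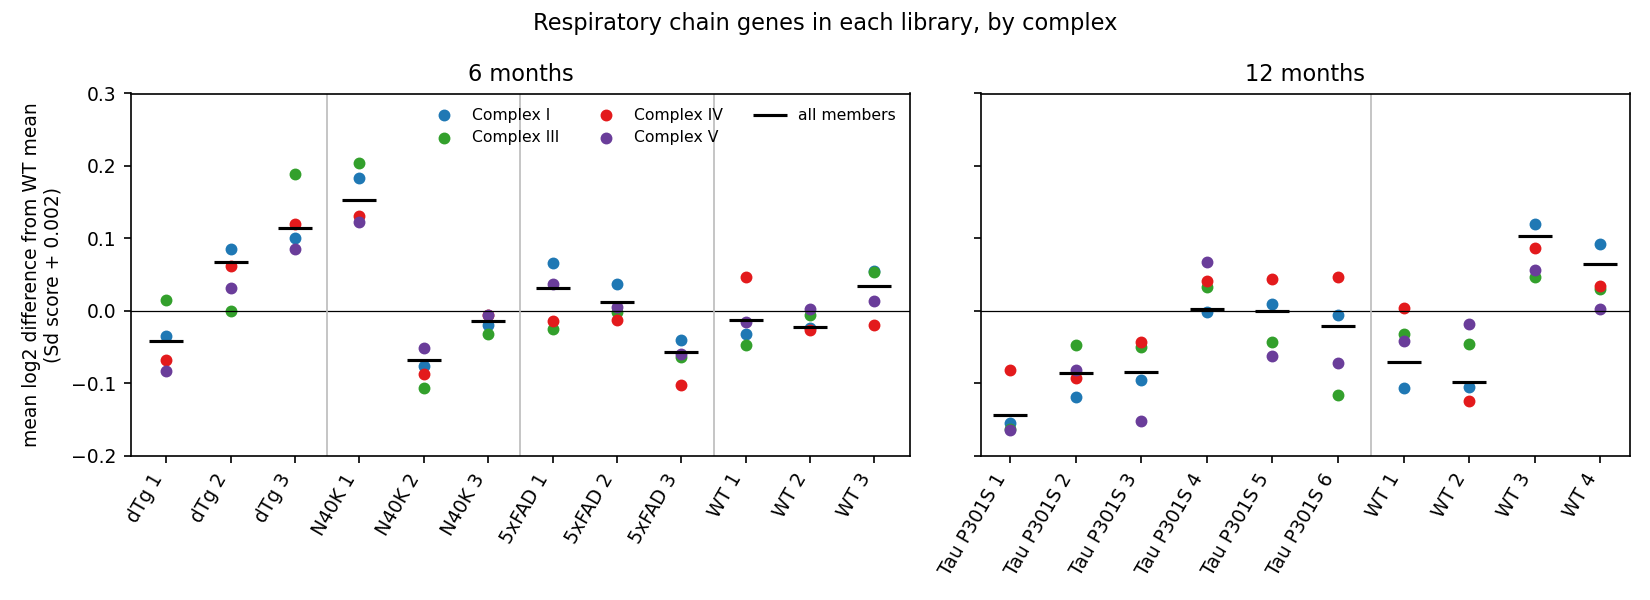
Mean log2 difference from the WT mean (Sd score + 0.002) over the genes of complexes I, III, IV and V (points) and over all members (bars), for each library, with the transgenic groups left of WT at 6 months (left) and 12 months (right). The N40K libraries range from -0.07 to 0.15 over all members, and all 4 complexes lie above 0 in N40K replicate 1 and below 0 in N40K replicate 2.

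Single groups were compared next, and they share libraries, so their values are not independent. In N40K minus WT, 0 of 87 members passed in limma (0.178% of all genes did), and 10 had an unadjusted p under 0.05, against 18.9% of all genes. Scores did not overlap between the groups in 3 members above WT and 6 below, against 16.8% and 2.64% of all genes. The smallest p belonged to Uqcrb (0.831-fold, limma adjusted p = 0.0992), Atp5c1 (1.23-fold, 0.110) and Ndufab1 (0.805-fold, 0.114). In dTg minus WT, 0 members passed (1.57% of all genes) and 9 had an unadjusted p under 0.05, against 22.5%. Scores were separated in 4 members above and 3 below, against 18.4% and 3.46% of all genes. Atp5c1 (1.26-fold, limma adjusted p = 0.0653) and Ndufa3 (0.888-fold, 0.0897) led, and Atp5c1 passed when dTg replicate 1 was left out.

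In dTg minus 5xFAD, where both groups carry the amyloid transgenes, 0 members passed in limma (0.312% of all genes) and 10 had an unadjusted p under 0.05, against 18%. Ndufv1 had the smallest p (1.36-fold, limma adjusted p = 0.125), followed by Atp5c1 (1.22-fold, 0.130) and Ndufab1 (0.833-fold, 0.167). Ndufv1 and Ndufb5 lay above 5xFAD without overlap and Ndufaf3 below, against 14.4% and 2.36% of all genes. Without dTg replicate 1, Atp5c1 passed here too. In dTg minus N40K, 0 members passed (0.0191% of all genes) and 1, Uqcrb, had an unadjusted p under 0.05 (1.15-fold, limma adjusted p = 0.893), against 5.14% of all genes. Next came Cox7a2, with a mean of 0.005 in dTg and 0.00567 in N40K mice, and Cox4nb, with 0.0967 in dTg and 0.085 in N40K mice (limma adjusted p = 0.985 each).

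The amyloid transgenes alone are tested by 5xFAD minus WT. There, 0 members passed in limma (0.0191% of all genes), 4 had an unadjusted p under 0.05, against 4.39% of all genes, and the members' median change was 0.00. Averaged over N40K status, 0 members passed (0.0446% of all genes) and 3 had an unadjusted p under 0.05, against 6.17%. For the interaction of both transgenes, 0 passed (0.0191%) and 2 had an unadjusted p under 0.05, against 2.87%.

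After Cox7a1, described next, the smallest p in 5xFAD minus WT belonged to Atp5j2, subunit f of ATP synthase, with a mean of 0.00733 in 5xFAD and 0.00567 in WT mice (1.21-fold), and to Ndufs6, a zinc-binding accessory subunit of complex I, with 0.00467 in 5xFAD and 0.00367 in WT mice (1.18-fold, limma adjusted p = 1 each). Averaged over N40K status they were Cox7a1, at 0.0223 with and 0.0317 without the amyloid transgenes (0.739-fold, limma adjusted p = 0.657), Ndufs6, at 0.00433 and 0.00367, and Ndufb3, at 0.0065 and 0.00583 (adjusted p = 0.795 each). In the interaction, Ndufaf1 had 0.18 and Atp5j2 -0.34 on the log2 scale after Cox7a1 (limma adjusted p = 1 each).

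Cox7a1, the heart and muscle isoform of complex IV subunit 7a, had the smallest p among members in 5xFAD minus WT. It scored 0.026, 0.017 and 0.029 in dTg, 0.030, 0.024 and 0.019 in N40K and 0.018, 0.023 and 0.021 in 5xFAD mice, against 0.047, 0.032 and 0.038 in WT mice. All 9 transgenic libraries thus lay below all 3 WT libraries, which was the case for 0.21% of all genes and for no other member. This pattern was chosen after its values were seen, and all of its comparisons rest on the same 3 WT libraries. The 5xFAD value was 0.557-fold that of WT (log2 -0.84 ± 0.22, SE; unadjusted p = 0.00376 and adjusted p = 0.747, limma) and the dTg value 0.628-fold (adjusted p = 0.121). The interaction was 0.82 ± 0.31 on the log2 scale (SE; limma adjusted p = 1). At 12 months Cox7a1 ranged from 0.004 to 0.022 in Tau P301S and from 0.007 to 0.020 in WT mice, the WT range lying within that of Tau P301S mice.

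In Tau P301S minus WT at 12 months, 0 of 88 members passed in limma, where 0.00658% of all genes did, and 3 had an unadjusted p under 0.05, against 8.28% of all genes. These 3 were Ndufb6, a membrane-arm subunit of complex I, Atp5d, the delta subunit of the central stalk, and Atp5s, a factor outside the synthase core. Ndufb6 had a lowest, median and highest score of 0.003, 0.004 and 0.005 in Tau P301S mice, against 0.004, 0.006, 0.006 and 0.006 in the WT libraries (0.802-fold, limma adjusted p = 0.496). Atp5d had 0.011, 0.0115 and 0.012 in Tau P301S mice, against 0.012, 0.012, 0.015 and 0.015 in WT mice (0.874-fold, adjusted p = 0.532). Atp5s had 0.017, 0.0205 and 0.023, against 0.024, 0.020, 0.029 and 0.033 in WT mice. All 3 overlapped between the groups, as nearly all genes did: 44 of 15192 genes lay above WT without overlap and 151 below. In Atp5d and Atp5s, WT replicates 3 and 4 were the highest libraries.

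Over all members, 24 changes lay above 0 and 59 below in Tau P301S mice, with a median of -0.04 against -0.02 over all genes. The balance turned when 2 WT libraries were left out. WT replicates 3 and 4 had library medians of 0.017 over all genes, against 0.013 in WT replicates 1 and 2 and 0.014 to 0.016 in Tau P301S mice. Without WT replicates 3 and 4, 50 members lay above 0 and 28 below, with a median of 0.03 against 0.08 over all genes, and 0 passed. With all libraries kept, 27 of 36 complex I subunits and 12 of 15 complex V subunits lay below 0. So did 9 of 17 in complex IV, 1 of 4 in complex II and 8183 of 15192 genes in all. Counts by complex without WT replicates 3 and 4 are not given here. The 4 members that passed in N40K carriers overlapped between Tau P301S and WT mice at 12 months, as nearly all genes did. Ndufv1, for example, scored 0.053 to 0.057 in Tau P301S and 0.052 to 0.063 in WT mice. Only 44 of 15192 genes lay above WT without overlap and 151 below.

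The members of smallest p in each complex at 12 months did not pass, which does not show how close to WT they lay. In complex I, after Ndufb6, they were Ndufv3, which averaged 0.0065 in Tau P301S and 0.00825 in WT mice, Ndufs6, at 0.00217 and 0.00275, and Ndufb10, at 0.00983 and 0.012 (limma adjusted p from 0.604 to 0.619). The assembly factor Ndufaf1 averaged 0.0142 ± 0.00422 in Tau P301S (SD, n = 6) and 0.0208 ± 0.00532 in WT mice (SD, n = 4, limma adjusted p = 0.621). Its change was 0.702-fold, with a 95% confidence interval from -1.07 to 0.053 on the log2 scale. The other assembly factors stood at 0.000833 in Tau P301S and 0.0005 in WT mice for Ndufaf2, 0.0857 and 0.0907 for Ndufaf4, and 0.820 and 0.821 for Ndufaf3 (limma adjusted p from 0.809 to 1).

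Complex II differed by at most 0.0005 between the group means. Sdhc averaged 0.002 in Tau P301S and 0.0025 in WT mice, Sdha 0.00283 and 0.0025, Sdhb 0.00317 and 0.003, and Sdhd 0.00683 and 0.00675 (limma adjusted p from 0.601 to 1). In complex III, Uqcr10 averaged 0.00883 in Tau P301S and 0.0107 in WT mice, Uqcr 0.00183 and 0.00225, Uqcrh 0.00317 and 0.0035, and Uqcr11 0.0025 and 0.00275 (adjusted p from 0.634 to 0.941, limma). In complex IV the muscle isoform Cox6a2 averaged 0.479 ± 0.0345 in Tau P301S (SD, n = 6) and 0.446 ± 0.0329 in WT mice (SD, n = 4; limma adjusted p = 0.780). Cox7a2l averaged 0.007 in Tau P301S and 0.0075 in WT mice, Cox4i1 0.00317 and 0.0035, and Cox7b 0.009 and 0.01 (limma adjusted p from 0.681 to 0.879). In complex V, after Atp5d, Atp5h (subunit d of the peripheral stalk) averaged 0.0055 in Tau P301S and 0.0065 in WT mice, Atp5o 0.00267 and 0.003, and Atp5k (subunit e) 0.0205 and 0.0253 (limma adjusted p from 0.698 to 0.809). The sign of the change turned in Sdhd, Ndufaf3, Ndufaf4, Uqcr11, Cox4i1 and Cox7b when libraries were left out.

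Lists of genes around the chain were counted in N40K carriers, where 10.8% of all genes rose and 0.936% fell. Among 6 further complex I assembly factors, 2 rose in limma over all genes and 0 fell: Ecsit (1.26-fold, adjusted p = 0.0373) and Tmem126b (1.29-fold, 0.0385). Of 18 assembly factors of complexes II to V, 2 rose and 0 fell, Cox16 and Lrpprc, which stabilises mitochondrial messenger RNA (1.48-fold). Of 13 genes for electron carriers, 2 rose and 0 fell, both of them, Pdss1 and Pdss2, in the synthesis of the ubiquinone tail. The citric acid cycle list gave 1 of 18, Pdha1 of pyruvate dehydrogenase, the mitochondrial biogenesis list 1 of 13, Tfb1m, and glycolysis 2 of 15, Gpi1 and Pfkp, all higher. Of 73 mitochondrial ribosomal protein genes, 4 rose and 1, Mrps33, fell, and of 78 cytosolic ones 0 passed in limma. In Tau P301S mice 0 genes of any of these lists passed.

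Scores of cell type markers were looked at beside these values, and their part in the result was not tested. In N40K carriers, 1 of 8 neuronal markers passed in limma (Snap25, higher), 3 of 8 astrocyte markers (S100b and Slc1a2 higher, Sox9 lower), 1 of 5 oligodendrocyte markers (Olig2, lower), 0 of 3 microglial markers and 1 of 6 endothelial and pericyte markers (Tek, lower). Over all genes, 10.8% passed as higher and 0.936% as lower, and the lists are too short to set against these shares.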

How the data were processed

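The authors deposited Sd scores, which are ratios on a linear scale with 3 decimals, from poly(A)-selected, stranded, paired-end RNA-seq of cortex with DNase digestion per the labels. The submitters' processing notes name CASAVA, STAR, BWA and bedtools 2.16.1 with build mm9. How reads were counted and scored, with which annotation, was not given in the sources used here. Depth is unknown for every score, and intervals resting on it are left out. No coordinates are printed, since GENCODE M21, used for intron lengths and exon junctions, is on GRCm38.

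Scores were fitted as log2(score + 0.002) with limma 3.58.1 in R 4.3.3, with 1 term per group, all libraries of a table in 1 fit (8 residual degrees of freedom each) and Benjamini-Hochberg adjustment over all its genes. The value 0.002 is the 5th percentile of scores above 0 and draws folds of low scores towards 1. Libraries were not centred. The fit was tested on simulated data. No missing values or identical libraries were found. The labels number replicates but do not say that each is a separate animal, so p-values measure the spread between these libraries. Alternatives were centring on library medians, pseudocounts of 0.01 and 0.001, a mean score of at least 0.02, eBayes with trend and robust options, a replicate block and leaving out each library; leaving out both libraries of highest median in a table was chosen after seeing the data.

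Members and gene lists were chosen with earlier results of these data known. Named are all members that passed, in the N40K and Tau P301S comparisons those of smallest p in each complex (4 each), elsewhere the 3 of smallest p, for levels the 2 highest and 2 lowest of each complex, and paralog pairs; for other lists, the members that passed. Other genes are named as examples after their values were seen.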

Additional observations from a re-analysis of the deposited data

Results flagged for a closer look

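Among 102 groups of 4 or 6 libraries at 12 months (named members), 21 had a library far from the others by Dixon's test. Its chance rate of about 5 percent is for values that are not rounded, and cannot be set against these scores. In 15 of them the whole range was 1 step of 0.001, so the distance is that of rounding.

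The widest gaps were in the same 2 libraries. Atp5k, subunit e of ATP synthase, stood at 0.036 in Tau P301S replicate 4, against 0.016 to 0.019 in the other Tau P301S libraries, and at 0.038 in WT replicate 2, against 0.019 to 0.022 in the other WT libraries. Cox8a, a complex IV subunit, stood at 0.009 in both libraries, against 0.004 to 0.005 in all others. Over all members, 6 of 88 (Atp5e, Atp5k, Cox7a1, Cox8a, Ndufv2 and Uqcr11) were highest in both. That is 6.82%, close to the 5.25% of all genes. Of all 24 pairs of a Tau P301S with a WT library, these 2 had the highest correlation of deviations from their group means (r = 0.32). The next pair, WT replicate 4 with Tau P301S replicate 3, had r = 0.26. Both libraries were picked after their values were seen, so these values are no independent support.

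The other values set apart in Tau P301S mice were 0.021 for Atp5b and 0.004 for Cox4i1 in replicate 5, 0.002 for Cox6a1 in replicate 2, and in replicate 1 a score of 0 for Ndufaf2, 0.002 for Sdha and 0.001 for Uqcr. Replicate 4 had 0.003 for Ndufs6, 0.004 for Sdhb and 0.004 for Uqcrh. In WT mice they were 0.023 for Atp5b, 0.005 for Atp5g1, 0.003 for Uqcr and 0.001 for Uqcrfs1 in replicate 2, 0.01 for Atp5g3 and 0.007 for Cox7a2 in replicate 3, and 0.004 for Ndufb6 and 0.002 for Ndufs6 in replicate 1.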

How the results depend on the processing

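The number of members past the threshold in N40K carriers was 4 in the reported fit (11.7% of all genes), 10 after centring (7.9% of all genes), 3 with eBayes trend and robust options (11.3%), which lost Ndufa3, 2 of the 27 tested at a mean score of at least 0.02 (8.63% of genes tested), and 0 to 7 with libraries left out (0 without both of highest median, 7 without N40K replicate 2, 1 without 5xFAD replicate 3 or dTg replicate 2). The share of all genes ranged from 5.18% without WT replicate 2 to 15% without dTg replicate 1, and was 4.77% without both of highest median. In dTg minus WT and dTg minus 5xFAD, the number of members past the threshold ranged from 0 to 1 (1 without dTg replicate 1). The reported fits had 0 members, against 1.57% and 0.312% of all genes. For these 2 comparisons the share of all genes without dTg replicate 1 is not given here. Centring moved the median change to -0.11 in N40K carriers, -0.16 in N40K minus WT and -0.11 in dTg minus WT, and the median of all genes to -0.04, -0.06 and -0.04. Deviations of same-numbered libraries correlated with r from -0.20 to 0.07 (18 pairs) at 6 months and from -0.27 to 0.19 (4 pairs) at 12 months. Over all pairs between groups r ran from -0.20 to 0.16 (54 pairs) and from -0.27 to 0.32 (24 pairs). With so few libraries per group, these values cannot tell whether replicate numbers pair libraries. With the replicate block, 2 members passed in N40K carriers, Atp5c1 and Ndufab1, and 5.66% of all genes did. With it, Sdhd in Tau P301S mice was -0.010, against 0.0089 without the block.

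The signs that turned belonged to changes that had not passed. After centring, they were Uqcrc2 (-0.0037), Ndufaf1 (-0.073), Atp5j (-0.078) and Sdhd (-0.097) in N40K carriers and Ndufaf3 (0.020) in Tau P301S mice. With libraries left out, WT replicates 3 and 4 together included, Tau P301S changes ranged from -0.032 to 0.13 for Sdhd, -0.015 to 0.013 for Ndufaf3, -0.16 to 0.044 for Uqcr11, -0.13 to 0.044 for Cox4i1, -0.24 to 0.078 for Cox7b and -0.24 to 0.22 for Ndufaf4. The cause was not tested. Unknown depth and 3 decimals limit scores under 0.02.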
